A study of Mus musculus with 2 samples.

Results

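A small population within sorted tumor NK cells carried transcripts of Tmem176a or Tmem176b, in most cells together with Il7r or Cxcr6. It held 166 of 6622 kept cells, 79 of 3067 in the KO library and 87 of 3555 in the WT library. The cells came from subcutaneous tumors of RMA-S, a lymphoma line of the mouse whose defect in peptide transport leaves little MHC class I on its surface, taken 2 weeks after injection and sorted as CD3ε-negative and NK1.1+. The KO library came from mice lacking Hif1a in NK cells (NK-Hif1a-/-) and the WT library from wildtype mice, with 1 library of each genotype. The strain and age of the mice, the driver of the deletion, its extent and the number of mice or tumors pooled in a library are not stated in the labels. Every difference between the libraries below therefore describes these 2 libraries and has no replicate check.

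The members were selected on the measured UMIs (unique molecular identifiers, 1 per captured transcript) of each cell. A member had at least 1 UMI of Tmem176a or Tmem176b, at least 3 UMIs over Tmem176a, Tmem176b, Il7r and Cxcr6, under 2 UMIs of Cd3d and Cd3e, and at least 1 UMI of Ncr1 or Klrb1c, the genes of the NK receptors NKp46 and NK1.1. The levels of these 8 genes are thus a description of the choice. The cells are called Tmem176+ cells here and were compared with all other kept cells of the same library, 2988 KO and 3468 WT. A narrower set, called NK comparator cells, met the same NK and CD3 conditions without a Tmem176 UMI and held 2676 KO and 3087 WT cells. Cells with 2 or more UMIs of Cd3d and Cd3e, 94 KO and 193 WT, served as another class.

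Group 1 innate lymphoid cells comprise circulating NK cells, which mature under the T-box factors Tbx21 and Eomes and carry granzymes, perforin and Ly49 receptors, and tissue-dwelling ILC1, which share NK1.1 and NKp46 but depend on Tbx21 with little Eomes. ILC1 and other helper-type innate lymphoid cells express the IL-7 receptor and genes such as Cxcr6, Ltb and Rora more than NK cells do. Tmem176a and Tmem176b encode related multi-pass membrane proteins of intracellular vesicles, described in dendritic cells and in some innate and T lymphocytes.

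Tmem176b (chromosome 6, 48833818 to 48841496, minus strand) and Tmem176a (chromosome 6, 48840919 to 48847071, plus strand) are divergent neighbours whose GENCODE spans overlap at their 5′ ends on GRCm38. Because the members were chosen by either gene, the stretch that the pair shares is shown. It lies between their closest annotated RefSeq starts, at 48841374 for Tmem176b and 48841483 for Tmem176a, 109 bases apart, at chr6:48841375-48841482 of GRCm38.p6, plus strand, 5′ to 3′.
Tmem176b to Tmem176a: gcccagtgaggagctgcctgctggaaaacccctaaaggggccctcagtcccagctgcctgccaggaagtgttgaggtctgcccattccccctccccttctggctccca
These 108 bases had a GC content of 63.9%. On either strand they held none of the ROR element core AGGTCA, the T-box motif AGGTGTGA or the RUNX motif TGTGGT. These were present in 16.3%, 1.27% and 16.8% of 32817 RefSeq promoter windows of 300 bases. Such windows are longer than this stretch, so a lack is more likely in it than those shares imply. The 300-base windows at the RefSeq starts of Tmem176b and Tmem176a also held none of the motifs. A motif match or its lack here describes letters only.

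Both genes of the pair were usually seen in the same cell. Tmem176b was detected in 75 KO and 84 WT Tmem176+ cells, at 499 CPM (440.1 to 564) in the KO library and 499 CPM (441 to 561) in the WT library, where CPM is UMIs per 1000000 summed UMIs of a class and the range is an exact 95% Poisson interval. Tmem176a was detected in 57 KO and 61 WT cells, at 249.6 CPM (208 to 297) in the KO library and 304 CPM (259.6 to 354) in the WT library. Both were found in 53 KO and 58 WT cells, Tmem176b alone in 22 and 26, and Tmem176a alone in 4 and 3. Outside the population, 2.88% of KO and 3.17% of WT kept cells carried a UMI of either gene, at median depths of 3770.5 and 4422.5 UMIs against 5096 and 5692 in Tmem176+ cells. Among cells with CD3 transcripts the shares were 9.57% and 6.74%.

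Il7r, the IL-7 receptor alpha chain, was detected in more Tmem176+ cells than Cxcr6, the receptor for CXCL16 on resident lymphocytes. Il7r had 108 and 124 UMIs in 43 KO and 52 WT cells, and Cxcr6 had 44 and 73 UMIs in 23 KO and 29 WT cells. Il7r and Cxcr6 were both present in 11 KO and 14 WT cells, Il7r alone in 32 and 38, Cxcr6 alone in 12 and 15, and neither in 24 and 20, which entered on Tmem176 UMIs. The total of the 4 genes had a median of 5 in KO and 6 in WT cells and ranged from 3 to 26 and from 3 to 32. NK receptor transcripts were well above the required 1 UMI, with a median of 6 KO and 7 WT UMIs of Ncr1 and Klrb1c, and both genes were seen in 60 and 72 cells. A single Cd3d or Cd3e UMI remained in 4 KO and 11 WT cells.

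The depth behind these values was 516875 UMIs over the KO and 549382 over the WT Tmem176+ cells, with 2177 to 20296 and 2554 to 23660 UMIs per cell. All kept cells held 13222535 KO and 19462712 WT UMIs. The rule asks for several UMIs, so deeper cells meet it more easily: the members made up 1.24% of KO cells at or under the library's median depth and 3.91% of those above, and 1.52% and 3.38% in the WT library. The libraries shared 19 cell barcodes, of which 1 was a member in either library and 0 in both. Hif1a (chromosome 12, 73901375 to 73947530, plus strand) had 25 and 33 UMIs in KO and WT Tmem176+ cells, 48.4 and 60.1 CPM, and 60.996 and 58.1 CPM in other kept cells. Tags near the 3′ end can lie outside the deleted part of Hif1a, and the level then checks nothing about the deletion.

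A limited part of the transcriptome differed between Tmem176+ cells and all other kept cells. Of 3020 genes compared, 59 (1.95%) were at least 2-fold higher in Tmem176+ cells in both libraries, and 60 (1.99%) at least 2-fold lower. A gene was compared where its UMIs in Tmem176+ cells, or those the other cells' rate would give there, reached 50 over both libraries. Ratios are log2 of CPM with 1 CPM added, and the medians over all genes compared were 0.00 in both libraries. The 59 include Tmem176a, Tmem176b, Il7r and Cxcr6, which the rule raised.

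**Figure D1:**
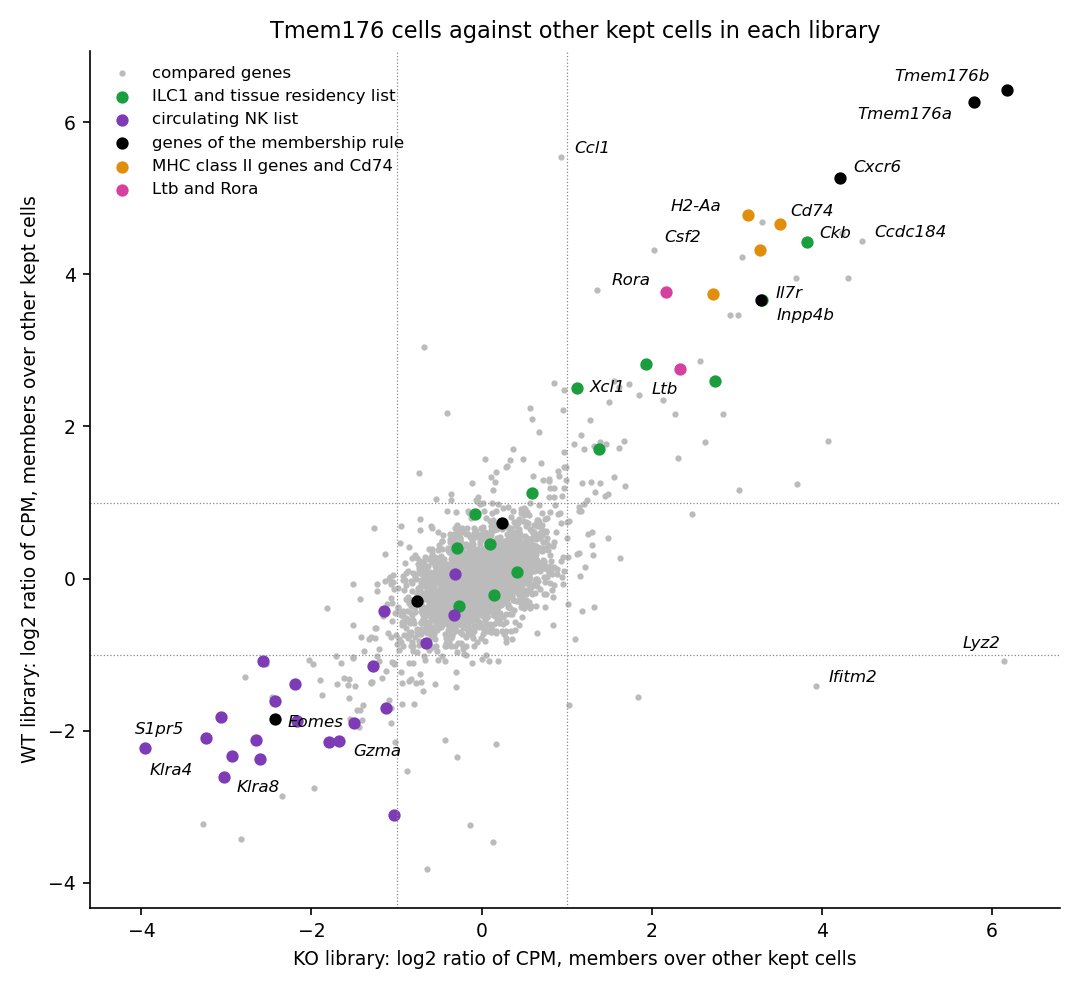
Log2 ratio of CPM of Tmem176+ cells (labelled members) over other kept cells for each of the 3020 genes compared, KO library on the horizontal and WT library on the vertical axis. Dotted lines mark 2-fold, coloured points are the genes of the rule, the ILC1 and circulating NK lists, MHC class II genes with Cd74, and Ltb with Rora; most circulating NK genes lie at lower left.

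Ltb and Rora, the markers of the population that the rule did not use, were both higher in Tmem176+ cells. Ltb (chromosome 17, 35194439 to 35196320, plus strand) encodes lymphotoxin beta, a membrane cytokine of lymphoid tissue organisation. It stood at 638 CPM (571 to 711) in the KO library and 976 CPM (895 to 1062) in the WT library, detected in 58 KO and 81 WT Tmem176+ cells, against 113 and 120.3 CPM in NK comparator cells. The log2 ratios over other kept cells were 2.34 and 2.76. Rora (chromosome 9, 68653786 to 69388246, plus strand), a nuclear receptor gene needed for ILC2 and expressed in ILC1, stood at 161 CPM (128 to 199) in the KO library and 322 CPM (276 to 373) in the WT library in 40 KO and 56 WT cells. Its NK comparator level was 31.7 and 18.3 CPM, and its ratios over other kept cells were 2.17 and 3.77. The levels in Tmem176+ cells lay above those of NK comparator cells in both libraries for both genes. After thinning each cell to 2600 UMIs, a Rora UMI was found in 32.9% and 49.4% of KO and WT Tmem176+ cells and 6.98% and 4.29% of NK comparator cells. The unthinned shares were 50.6% and 64.4% against 9.75% and 6.997%.

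Of 13 genes compared from a list of 24 ILC1 and tissue-residency genes, 6 were higher in both libraries and 0 were lower, and the list medians were 0.60 (KO) and 1.13 (WT). Inpp4b, a phosphoinositide phosphatase, stood at 67.7 CPM (47.2 to 94.2) in the KO library and 60.1 CPM (41.3 to 84.4) in the WT library, with ratios of 3.30 and 3.67. Ckb, the brain-type creatine kinase that buffers ATP, stood at 52.2 CPM (34.4 to 76.002) in the KO library and 69.2 CPM (48.9 to 94.9) in the WT library, with ratios of 3.83 and 4.42. The oxysterol receptor Gpr183 followed at 2.75 and 2.60, and the chemokine receptor Cxcr3 at 1.38 and 1.70. The remaining higher genes, Xcl1 and Cd226, are named after their values were seen. Xcl1, a chemokine for cross-presenting dendritic cells, had ratios of 1.12 and 2.51, and Cd226, an activating receptor, of 1.93 and 2.82. Among those too sparse for the comparison, the death ligand gene Tnfsf10 (TRAIL) had 18 and 17 UMIs and ratios of 3.08 and 2.92, and Cd200r1 had 8 and 20 UMIs and ratios of 2.63 and 4.11. The integrin gene Itga1, which encodes the ILC1 surface marker CD49a, had only 2 and 3 UMIs, and Zfp683, the gene of the residency factor Hobit, had 1 and 0. The ILC1 character thus rests on a share of the list and does not include its defining integrin at this depth.

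Of 21 circulating NK genes compared from a list of 24, 17 were lower in Tmem176+ cells in both libraries and 0 were higher, and the list medians were -2.18 (KO) and -1.87 (WT). Klf2, Ly6c2, Spn and Itgb2 were the genes that did not reach 2-fold in both. The summed level of the list was 6698 and 5916 CPM in KO and WT Tmem176+ cells, 8990.0 and 10403 CPM in CD3-transcript cells and 23235 and 21992 CPM in NK comparator cells, so CD3-transcript cells also lay below NK comparator cells. Eomes, which specifies NK cells, stood at 67.7 CPM (47.2 to 94.2) in the KO library and 40.045 CPM (25.1 to 60.6) in the WT library against 241 and 187 CPM in NK comparator cells, with ratios over other kept cells of -1.79 and -2.14. An Eomes UMI was found in 26.6% and 19.5% of KO and WT Tmem176+ cells and 56.7% and 55.8% of NK comparator cells, or 14.5% and 3.53% against 42.6% and 37.9% after thinning. Tbx21 was closer between the classes, at 98.7 and 58.2 CPM against 118 and 80.3 in NK comparator cells. S1pr5, the sphingosine receptor by which NK cells leave tissues, stood at 3.87 and 10.9 CPM against 48.4 and 53.6, and the integrin gene Itgam (CD11b) at 25.2 and 40.045 against 126 and 115.

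The Ly49 receptor genes, which encode MHC class I receptors of NK cells, were among the lowest. Klra4 stood at 75.5 CPM (53.7 to 103) in the KO library and 249 CPM (209 to 295) in the WT library, with ratios of -3.96 and -2.23, and Klra8 at 98.7 CPM (73.5 to 129.7) in the KO library and 140.2 CPM (111 to 175) in the WT library, with ratios of -3.03 and -2.61. Klra7 had ratios of -2.61 and -2.38 and Klra9 of -2.65 and -2.13. Members of this family are similar in sequence, so UMIs may be split between them. In the full list of NK receptors, 25 were compared, 8 were lower and 2 were higher. Those 2 were Cd160, a receptor for HVEM and MHC class I, at 151 CPM (119 to 188) in the KO library and 244 CPM (204 to 289) in the WT library and ratios of 2.28 and 2.16, and Cd226.

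Of 14 cytotoxic effector genes compared, 6 were lower, the granule genes Gzma, Gzmb, Gzmf, Gzmg and Prf1 and the death ligand gene Fasl, and 1 was higher, Gzmc. Gzma, granzyme A, was present in 79 of 79 KO and 85 of 87 WT Tmem176+ cells, but at 4187 CPM (4012 to 4367) in the KO library and 2778 CPM (2640.0 to 2921) in the WT library against 14072 and 12984 CPM in NK comparator cells. Its ratios over other kept cells were -1.68 and -2.14, and those of the perforin gene Prf1 were -1.50 and -1.90. Gzmf had ratios of -2.35 and -2.85 and Gzmg of -1.97 and -2.75. The Gzmg difference depended on the cells counted, with a ratio of 1.05 in 1 library without the 3% of cells with the most UMIs and of -0.80 in the KO library as a mean over cells. Gzmc, named after its values were seen, had ratios of 3.03 and 1.17, with 79.9% of KO and 69.4% of WT UMIs in 5 cells of each library. Serpinb9b, a granzyme inhibitor gene, was lower at -2.93 and -2.34, as were Khdc1c at -2.83 and -3.42 and Phactr3 at -3.27 and -3.23. The summed level of the cytotoxic list was 11891 and 10454 CPM in KO and WT Tmem176+ cells, 10854 and 16391 CPM in CD3-transcript cells and 24452 and 24443 CPM in NK comparator cells.

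**Figure D2:**
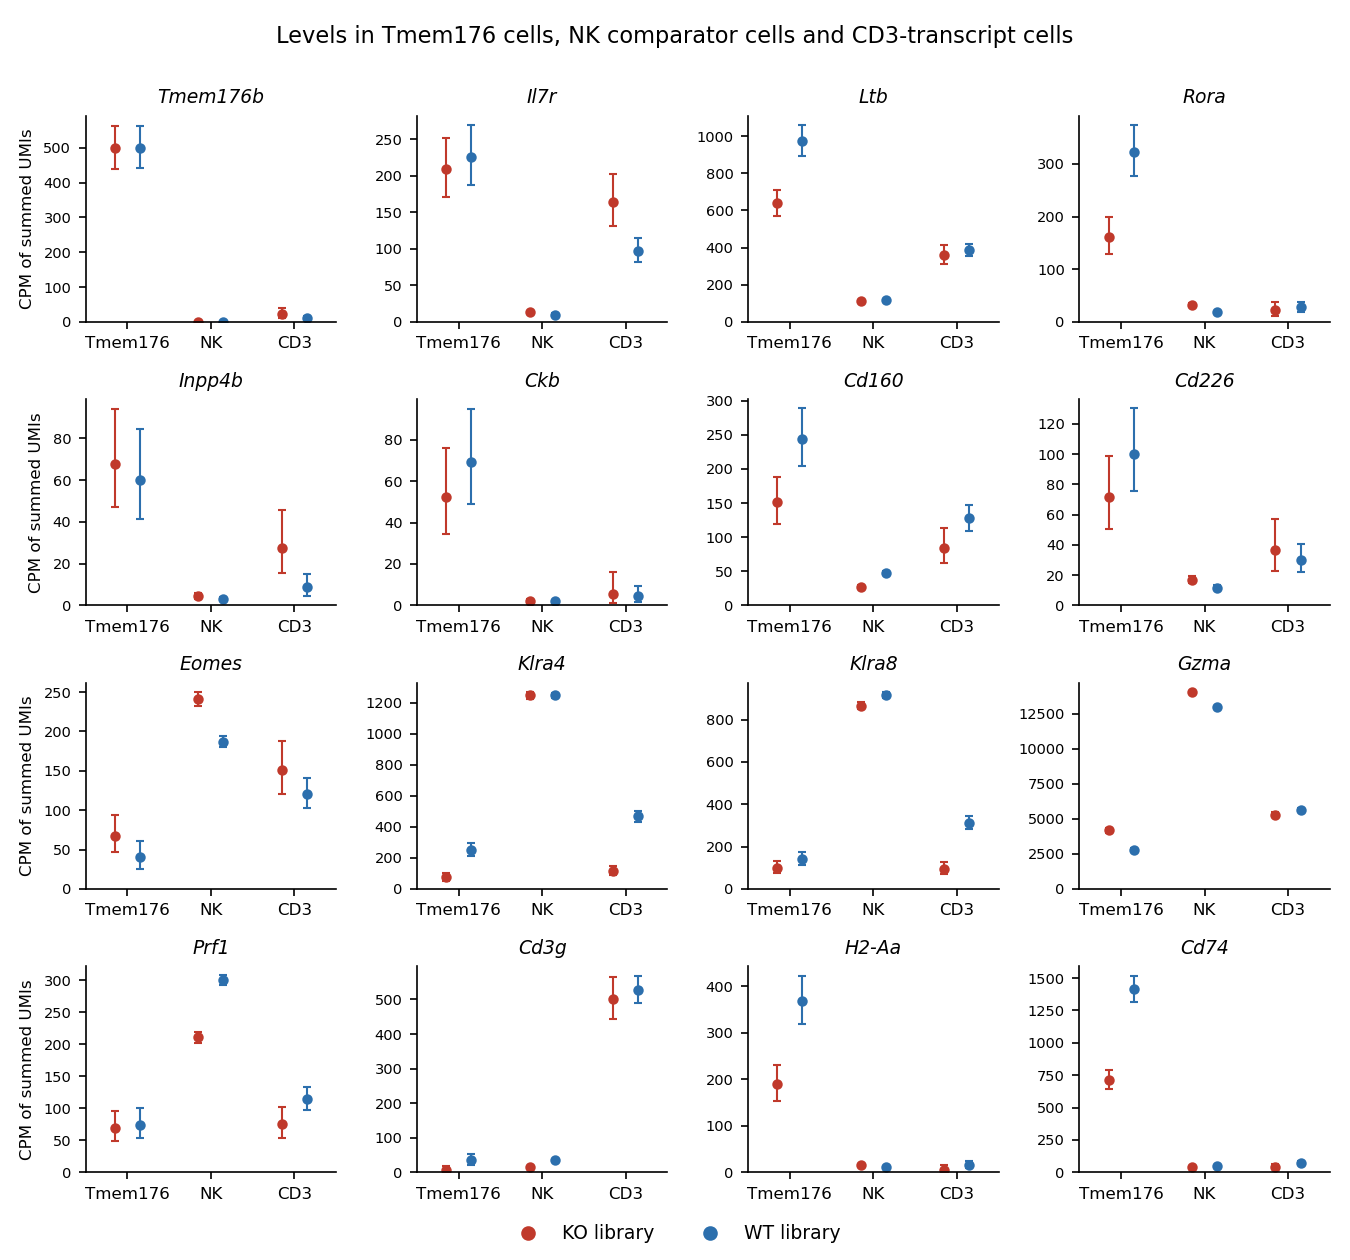
CPM of summed UMIs for 16 genes in Tmem176+ cells, NK comparator cells (no Tmem176 UMI) and CD3-transcript cells, KO library in red and WT library in blue, with exact 95% Poisson intervals that cover counting error only. Ltb, Rora, Inpp4b, Ckb and Cd160 are highest in Tmem176+ cells, while Eomes, Klra4, Klra8 and Gzma are highest in NK comparator cells.

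Several cytokine and receptor genes were on the higher side. Of 12 cytokine and chemokine genes compared, 4 were higher (Ltb, Csf2, Xcl1 and Cxcl2) and 2 were lower (Ccl4 and Ccl5). The Cxcl2 UMIs, 44 KO and 20 WT, came from 4 cells in each library, and with the rule applied after thinning the KO ratio of Cxcl2 was -0.26. Csf2, which encodes GM-CSF, stood at 59.976 CPM (40.8 to 85.1) in the KO library and 160.2 CPM (128 to 197) in the WT library in 13 KO and 20 WT cells, with ratios of 2.02 and 4.32. Of 15 cytokine receptor genes compared outside the rule, 2 were higher and 0 lower. These were Tnfrsf25, the receptor (DR3) for TL1A, at 38.7 CPM (23.6 to 59.8) in the KO library and 61.9 CPM (42.9 to 86.5) in the WT library and ratios of 4.24 and 4.55, and the IL-27 receptor gene Il27ra at ratios of 1.33 and 1.75. Il2ra, CD25, stood at ratios of 2.39 and 1.01 on 19 and 17 UMIs. Among 8 trafficking receptors outside the rule, Cxcr3 and Gpr183 were higher, and S1pr5 was among the 2 that were lower. Of 12 checkpoint and costimulation genes, 5 were higher (Ctla4, Lag3, Cd82, Cd83 and Ly6a) and 0 were lower. Ly6a (Sca-1) had ratios of 2.83 and 2.16, and the inhibitory receptor gene Ctla4 of 1.55 and 1.34.

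Among the 15 highest genes by the weaker of the 2 libraries, several belong to none of these lists. Ccdc184 stood at 170.3 CPM (137 to 209.8) in the KO library and 355 CPM (307 to 408) in the WT library in 27 KO and 50 WT Tmem176+ cells, with ratios of 4.48 and 4.44. Asb2, a subunit of an E3 ubiquitin ligase, had ratios of 4.31 and 3.96, and Mnda, of the interferon-inducible HIN-200 family, of 3.70 and 3.95. Ramp1, a subunit of the receptor for the neuropeptide CGRP, stood at 153 CPM (121 to 190.5) in the KO library and 122 CPM (94.5 to 155) in the WT library, with ratios of 2.92 and 3.47, and Podnl1 at ratios of 3.02 and 3.46. Ms4a4c, from the membrane-protein family related to TMEM176, had ratios of 2.31 and 1.58, whereas Ms4a4b had -0.38 and -0.33.

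Among 17 lineage transcription factors compared, 3 were higher (Rora, Maf and Ikzf2) and 3 were lower (Eomes, Irf8 and Zeb2). Maf, a regulator of helper cytokine genes, had ratios of 1.62 and 1.72. Gata3, which all helper-type innate lymphoid cells use, stood at 101 and 78.3 CPM against 63.4 and 44.5 in NK comparator cells. Defining genes of ILC2 and the ILC3 cytokine gene Il22 were not detected: Il1rl1, Il13 and Il22 each had 0 UMIs in the Tmem176+ cells of both libraries. A count of 0 allows up to 3 UMIs per library. Of the ILC2 list 4 genes were compared, with Csf2 higher and Klrg1 lower, and of the ILC3 list 3, with Kit, the stem cell factor receptor, and Maf higher. Kit stood at 44.5 and 70.989 CPM, with ratios of 1.17 and 1.89.

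Transcripts of antigen-presenting cells were also more abundant in Tmem176+ cells. Of 7 genes compared from a list of 23 dendritic and myeloid genes, 4 were higher (H2-Aa, H2-Ab1, H2-Eb1 and Cd74) and 1 was lower (Itgax), while 9 KO and 12 WT genes of the list were at 0. The summed level of the list was 2266 and 2663 CPM in KO and WT Tmem176+ cells and 352 and 358 CPM in other kept cells. Cd74, the MHC class II invariant chain, stood at 714 CPM (643 to 791) in the KO library and 1414 CPM (1317 to 1517) in the WT library in 32 KO and 47 WT cells, with ratios of 3.51 and 4.66. H2-Aa stood at 189.6 and 368 CPM in 14 KO and 20 WT cells, with ratios of 3.13 and 4.78. At least 2 UMIs of the 3 MHC class II genes and Cd74 were carried by 27 KO and 43 WT Tmem176+ cells, and at least 10 by 15 and 19. The cells with at least 2 were deeper than those with 0 or 1. Their median was 6592 against 4919 UMIs in KO and 6643 against 4913.5 in WT cells. Leaving these cells out, as done below, thus also takes out deeper cells. The dendritic cell genes Flt3 and Siglech and the B cell gene Ms4a1 had 0 UMIs. Lyz2, a macrophage and neutrophil gene, had 393 KO UMIs in 5 cells, 389 of them in 1 cell, and 0 WT UMIs. The part of antigen-presenting cells in the higher class II level was not tested.

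Of 5 T cell list genes compared that the rule does not limit, 0 were higher and 1 was lower. The summed level of the whole list, Cd3d and Cd3e included, was 391 and 426 CPM in KO and WT Tmem176+ cells, 396 and 405 CPM in other kept cells and 319 and 279 CPM in NK comparator cells. Cd3g had 4 and 19 UMIs in 2 KO and 7 WT cells. Cd8a and Cd5 had 0 UMIs, and Cd4 had 3 and 0. None of the 5 B cell genes or the 9 mast cell and granulocyte genes in the files had enough UMIs to compare. The erythroid list, of which 3 genes were compared and none passed 2-fold in both libraries, summed to 246 and 120.1 CPM in Tmem176+ cells and 298 and 879.6 CPM in other kept cells. Genes of glycolysis (10 compared), the NF-kB pathway (20), heat shock (12) and S and G2M phases (8) gave 0 higher and 0 lower in both libraries.

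The Tmem176+ cells were not uniform. After thinning to 2600 UMIs, a median of 5 genes of the ILC1 list was detected per cell in both libraries, against 3 in NK comparator cells. Of the circulating NK list, a median of 4 genes in KO and 5 in WT Tmem176+ cells was detected, against 9 and 10. CD3-transcript cells lay closer to the Tmem176+ cells, with medians of 4 ILC1-list and 6 circulating NK-list genes in both libraries. More ILC1-list than NK-list genes were detected in 39 of 76 KO cells (51.3%, exact 95% binomial interval 39.6% to 63.0%), and in the WT library in 37 of 85 (43.5%, 32.8% to 54.7%). That was seen in 2.03% of KO and 1.57% of WT NK comparator cells. The NK-list genes were in the majority in 27 KO (35.5%) and 31 WT (36.5%) Tmem176+ cells, so the name ILC1-like describes part of the population.

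**Figure D3:**
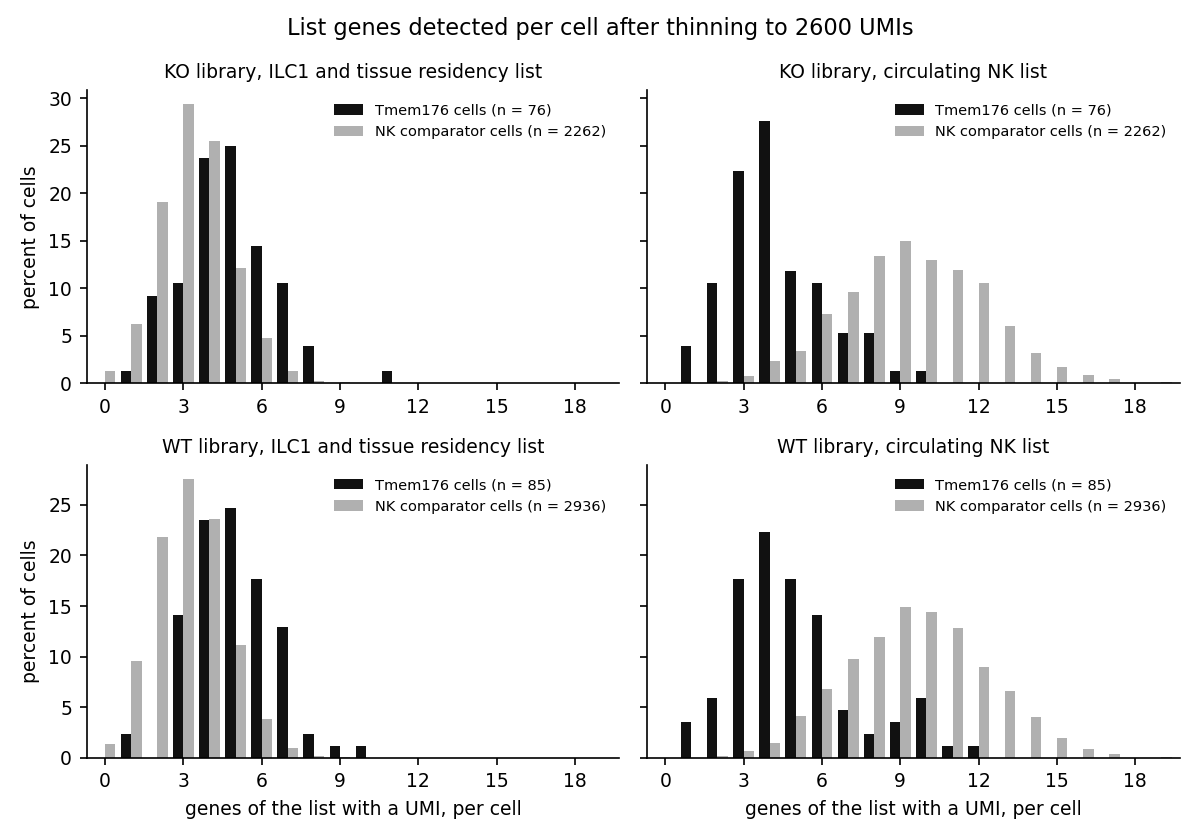
Percent of cells by the number of ILC1-list genes (left) and circulating NK-list genes (right) with a UMI, of 24 genes each, after thinning every cell to 2600 UMIs, KO library above and WT library below. Black bars are Tmem176+ cells (76 KO, 85 WT) and grey bars NK comparator cells (2262 KO, 2936 WT); the black bars of the NK list sit to the left of the grey ones and overlap them.

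Ltb, Gzma and Klra8 differed between cells with few and many rule-gene UMIs, while Rora gave no steady order. Just inside the threshold, with 3 UMIs, were 13 KO and 12 WT cells, and just outside, with a Tmem176 UMI and a total of 2, were 17 and 23 cells that met the other conditions. Ltb stood at 342 and 287 CPM with a total of 2, 350.0 and 680.2 with 3 and 783 and 1282 with 6 or more, in KO and WT cells. For Gzma the levels were 5479 and 11107, 5083 and 3119.9 and 3375 and 1831 CPM. Cells just outside thus had Ltb levels between those of NK cells with none of the 4 genes (103 and 111 CPM) and those of the cells with 6 or more. Klra8 stood at 285 and 144 CPM with a total of 2, 228 and 192 with 3 and 46.5 and 104 with 6 or more. Rora stood at 228 and 264 CPM with a total of 2, 107 and 414 with 3, 152 and 213 with 4 to 5 and 179 and 368 with 6 or more. From a total of 2 to 3, Ltb was nearly the same in KO cells and Klra8 was higher in WT cells. Deeper cells reach higher totals, with median UMIs of 4745 and 5138 at a total of 3 and 5821.5 and 5843.5 at 6 or more.

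**Figure D4:**
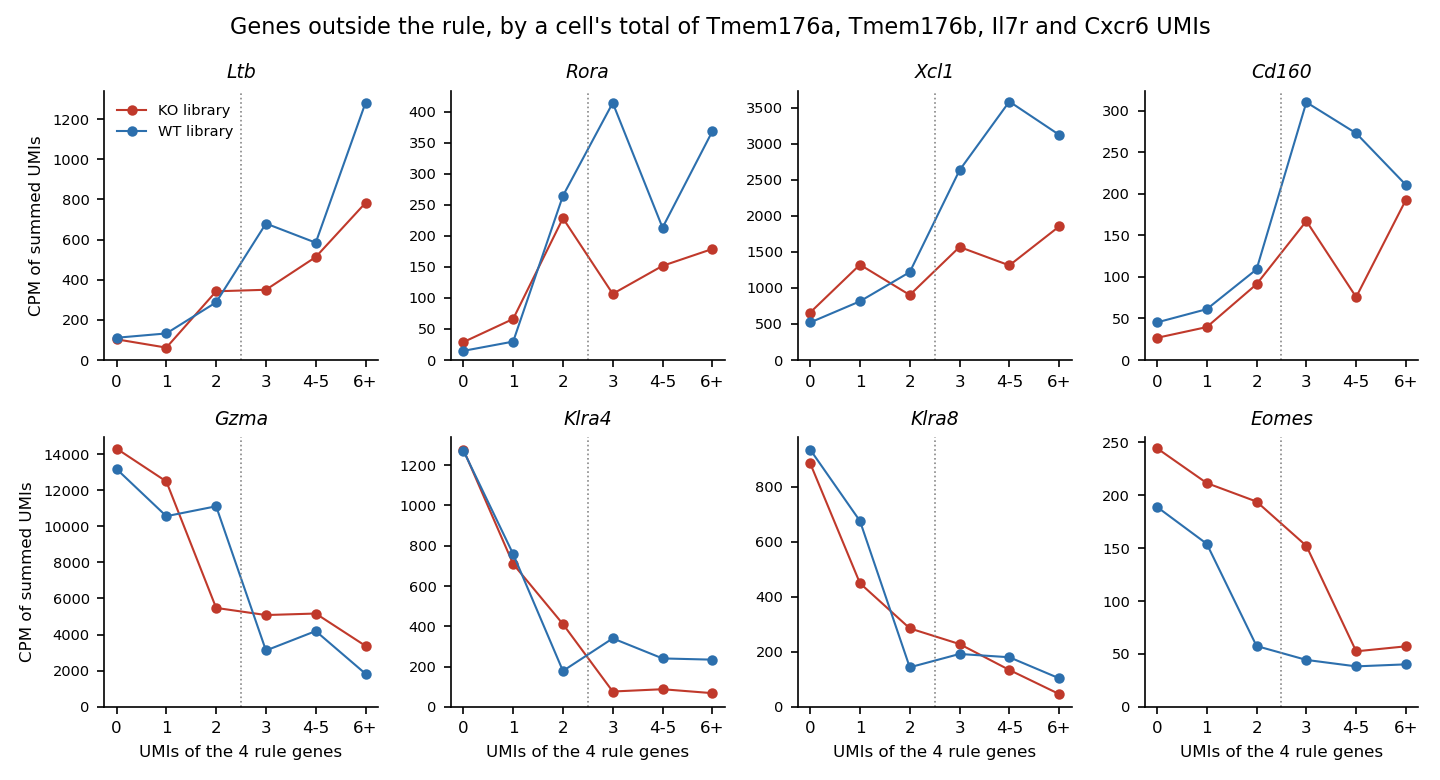
CPM of 8 genes outside the rule by the total of Tmem176a, Tmem176b, Il7r and Cxcr6 UMIs in a cell, for cells with a Tmem176 UMI (total 0: none of the 4), KO library in red and WT in blue; the dotted line marks the threshold of 3. Ltb is higher and Gzma lower at 6 or more than at 0 in both libraries.

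Levels also varied with the rule genes detected in a cell. KO cells with neither Il7r nor Cxcr6 had an Ltb level of 293 CPM and a Gzma level of 9438 CPM. KO cells with Il7r and without Cxcr6 had 837 and 1684 CPM, and those with both had 787 and 1235 CPM. In the WT library the cells with neither gene had 873 CPM of Ltb and 3884 CPM of Gzma. Those with Il7r and without Cxcr6 had 966 and 3028 CPM, and those with both had 1152 and 2099 CPM. Cells with Cxcr6 and without Il7r had 782 and 1383 CPM in the KO library and 936 and 1782 CPM in the WT library. Whether these differences between the libraries exceed the spread between mice was not tested.

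Cells with and without an Eomes UMI differed too, for Ltb and Gzma more in the KO than in the WT library. The 21 KO cells with an Eomes UMI had 245 CPM of Ltb, 65.4 of Rora and 8115 of Gzma, against 855, 213 and 2025 CPM in the 58 without. In the WT library the 17 cells with an Eomes UMI had 772, 191 and 3148 CPM, against 1049.7, 369.8 and 2643 CPM in the 70 without. Cells with an Eomes UMI were deeper, at a median of 7628 against 4504.5 UMIs in KO and 6808 against 5070.5 in WT cells. Ltb and Rora were also present in cells with 0 or 1 class II UMI. These 52 KO and 44 WT cells had 545 and 894 CPM of Ltb and 195 and 288 CPM of Rora.

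The comparison of the libraries asks how loss of Hif1a in NK cells relates to this population. Its share of kept cells was 2.58% among KO cells, with an exact 95% binomial interval of 2.04% to 3.20%, and 2.45% among WT cells, with 1.97% to 3.01%. With the rule applied after thinning to 2600 UMIs, the shares were 1.59% (41 of 2581; 1.14% to 2.15%) and 1.33% (45 of 3382; 0.972% to 1.78%). The intervals take in counting error and no spread between mice or tumors, so these shares do not compare the genotypes.

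Within Tmem176+ cells, 48 of 2770 genes (1.73%) were at least 2-fold higher in the KO library and 39 (1.41%) at least 2-fold lower. These are genes with at least 50 UMIs over both groups of cells, and the median log2 ratio of KO over WT was 0.02 in Tmem176+ cells and 0.00 for the same genes in other kept cells. The selecting genes Tmem176b and Il7r had ratios of 0.00 and -0.11, and Cxcr6 of -0.64, which was 0.56 without the cells with 2 or more class II UMIs. Of the markers outside the rule, Rora was lower in KO cells, at -1.0001 (-1.40 to -0.62) with an exact conditional 95% binomial interval, whereas in other kept cells its ratio was 0.60. Ltb had a ratio of -0.61 (-0.81 to -0.41), against -0.19 in other kept cells. Without the cells with 2 or more class II UMIs the Rora ratio was -0.56, and without those with an Eomes UMI the Ltb ratio was -0.30.

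Genes of the NF-kB pathway, which relays inflammatory and activating signals, went both ways between the libraries in Tmem176+ cells. Of 20 pathway genes compared, 1 was 2-fold higher in KO Tmem176+ cells and 0 were lower, with a median of -0.05, against 9 higher and 0 lower and a median of 0.81 in other kept cells. In the 12 KO and 17 WT Tmem176+ cells with fewer than 3 UMIs of the S and G2M list, 0 were higher and 5 lower. Their median there was -0.46, and the minimum of 50 UMIs was not applied again. Of the 342 genes of any kind that met it in those cells, 5 were 2-fold higher and 9 lower. Of all 2770 genes, 61 (2.2%) were 2-fold higher and 16 (0.578%) 2-fold lower in other kept cells. The KO over WT ratio was lower in Tmem176+ cells than in other kept cells for 20 of the 20 genes, and for 48.0% of all 2770 genes. The summed level of the list was 5733 and 5271 CPM in KO and WT Tmem176+ cells and 7003 and 3016 CPM in other kept cells. The WT level was thus higher in Tmem176+ cells than in other cells, and the KO level lower. Nfkbia, the inhibitor IκBα, named here after its values were seen as the most abundant of the list, stood at 2070.1 and 1957 CPM in Tmem176+ cells and 2321 and 1055 CPM in other kept cells. Nfkbiz, a nuclear IκB, had 275 and 160.2 CPM in Tmem176+ cells, a ratio of 0.77 (0.38 to 1.18), and 455 and 103 CPM in other kept cells, a ratio of 2.14. Gadd45b, a stress-response gene, had 553 and 328 CPM, a ratio of 0.75 (0.48 to 1.03), and 709.6 and 159.6 CPM, a ratio of 2.15. The gene past 2-fold was Nfkbid, another nuclear IκB, at 1.51 (0.92 to 2.17) and 2.31, whereas Nfkbie, a further IκB, had -0.70 (-1.52 to 0.06) and 0.67. The same pattern for a cluster of such cells was known before the population was chosen, so these values are no independent support for it.

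**Figure D5:**
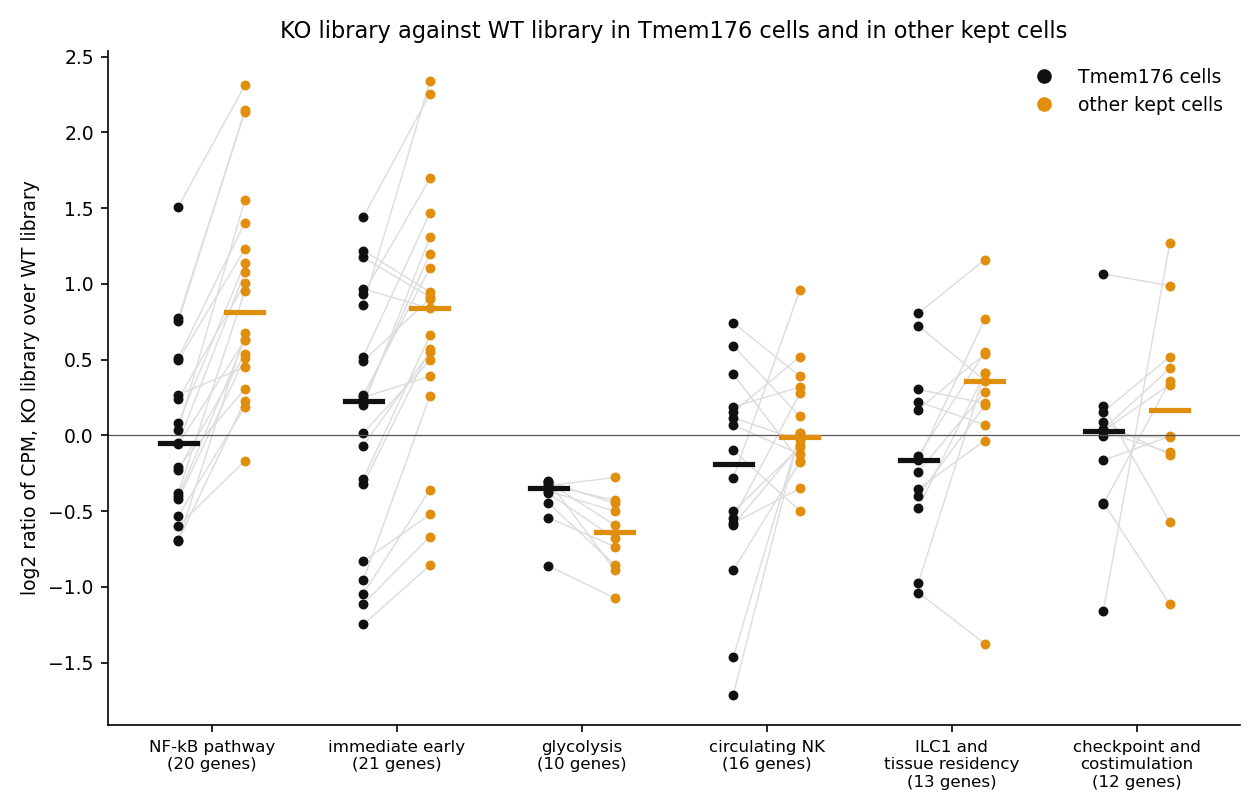
Log2 ratio of CPM, KO over WT library, for the genes of 6 lists in Tmem176+ cells (black) and other kept cells (orange), with 1 grey line per gene and a bar at each median. The medians of the NF-kB list are -0.05 in Tmem176+ cells and 0.81 in other kept cells.

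Immediate early genes, which switch on within minutes of stimulation, were mixed. Of 21 compared, 3 were higher and 3 lower in KO Tmem176+ cells, with a median of 0.23, against 7 higher, 0 lower and a median of 0.84 in other kept cells. Nr4a1, an orphan nuclear receptor gene, stood at 664 CPM (595 to 738) in the KO library and 244 CPM (204 to 289) in the WT library, with a ratio of 1.44 (1.15 to 1.74) and 2.25 in other kept cells. Fos, an AP-1 subunit gene, was lower in KO cells at -1.25 (-1.51 to -0.9965), and Egr1 was higher at 1.18 (0.65 to 1.74), and in other kept cells their ratios were -0.86 and 0.91. Glycolysis genes, textbook targets of HIF-1, gave 0 higher and 0 lower of 10, with a median of -0.35 in Tmem176+ cells and -0.64 in other kept cells. Pgk1, phosphoglycerate kinase, had 96.7 and 177 CPM in KO and WT Tmem176+ cells, a ratio of -0.86 (-1.39 to -0.36), and -1.07 in other kept cells. Of 6 other HIF targets compared, 0 were higher and 1 lower, Ddit4, an mTORC1 inhibitor gene, at -1.19 (-1.99 to -0.47).

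Few genes of the ILC1 and NK lists passed 2-fold between the libraries. Of 13 ILC1-list genes 0 were higher and 1 was lower in KO cells (median -0.16), and of 16 circulating NK genes 0 were higher and 2 were lower (median -0.19). The NK-list median was -0.67 with 4 genes lower without the cells with 2 or more class II UMIs. It was -0.50 with 5 lower under the rule after thinning. In the cells with fewer than 3 UMIs of the S and G2M list it was -1.32 with 9 lower. The lower NK genes were Klra4, at -1.71 (-2.28 to -1.20) against 0.02 in other kept cells, and Zeb2, a factor of terminal NK maturation, at -1.46 (-2.48 to -0.60) against 0.01. Klra4 had 39 and 137 UMIs in 27 KO and 38 WT cells. Of the WT UMIs 61.3% came from 5 cells and 31 from 1 cell, so its interval is too narrow. As a mean over cells the Klra4 ratio was -1.66. The lower ILC1-list gene was Hspa1a at -1.04 (-1.26 to -0.82), a heat shock gene with a near-identical copy in Hspa1b. Eomes had a ratio of 0.74 (-0.05 to 1.60) on 35 and 22 UMIs, and -0.38 with the rule after thinning. Gzma had a ratio of 0.59 (0.50 to 0.69), which turned to -0.38 without the cells with an Eomes UMI. It was -0.14 without those with 2 or more class II UMIs and -0.03 with the rule after thinning. Of 12 checkpoint genes, Icos was higher at 1.07 (0.23 to 1.99) and Cd83 lower at -1.16 (-1.54 to -0.80).

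The genes with the highest KO over WT ratios in Tmem176+ cells included both shared and unshared differences. Pim3, a survival kinase gene, had 62 and 22 UMIs and a ratio of 1.56 (0.86 to 2.36), with 1.56 in other kept cells, and Metrnl, a secreted factor gene, had 1.34 (0.77 to 1.96) and 1.28. Snap47 had 1.81 (0.90 to 2.92) against 0.21, and Sla2, an adaptor that dampens antigen receptor signalling, 1.22 (0.49 to 2.04) against 0.17. Lgals3, galectin-3, stood at 277 CPM (233 to 326) in the KO library and 94.7 CPM (70.7 to 124) in the WT library, a ratio of 1.54 (1.08 to 2.03), against -0.35 in other kept cells. Upp1, uridine phosphorylase, had 39 and 14 UMIs and a ratio of 1.53 (0.65 to 2.56), against -0.73. The other genes of this side, Auh, Ppp3cc, Plac8 and Purb, had ratios of 1.38, 1.36, 1.34 and 1.28. The Upp1 ratio was -0.02 without the cells with 2 or more class II UMIs, and that of Lgals3 was 0.58 without the cells with an Eomes UMI. Of the 143 KO Lgals3 UMIs, 44 came from 1 cell and 51.7% from 5 cells. The Lgals3 ratio was 1.05 without the 1 KO cell that had 2 or more macrophage-gene UMIs.

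On the lower side, Cxcl10, a chemokine induced by interferon-γ, stood at 23.2 CPM (11.996 to 40.6) in the KO library and 166 CPM (133 to 203) in the WT library, with 12 and 91 UMIs in 6 KO and 18 WT cells. Its ratio was -2.78 (-3.84 to -1.96), against 0.94 in other kept cells. The interferon-induced gene Isg15 had 22 and 64 UMIs and a ratio of -1.43 (-2.22 to -0.73), against 1.15. Csf2 had 31 and 88 UMIs and a ratio of -1.40 (-2.06 to -0.81), against 0.89. Each of these 3 genes was thus lower in KO Tmem176+ cells while the remaining KO cells were higher. The interferon response list did not go down as a whole. Of 8 of its genes compared, 2 were higher and 1 was lower in KO Tmem176+ cells, with a median of 0.08. Crtam, an adhesion receptor of activated lymphocytes, had a ratio of -1.99 (-3.21 to -1.04) and -0.76 in other kept cells. Hspa1b had -1.95 (-2.64 to -1.34) and -1.04, and Spp1, osteopontin, -1.47 (-1.93 to -1.05) and -0.98. Cited4, Usp3, Bnip2 and Rbm6 had ratios of -1.44, -1.39, -1.39 and -1.39. Class II transcripts moved with this comparison as well, with Cd74 at -0.99 (-1.17 to -0.81) and H2-Aa at -0.95 (-1.32 to -0.60). Without the cells with 2 or more class II UMIs the ratios were -0.18 for Csf2, -2.27 for Cxcl10, 0.10 for Spp1 and -0.43 for Cd83.

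Some differences rested on few cells. Ccl1, a chemokine gene, had 5 and 113 UMIs in KO and WT Tmem176+ cells, and the WT UMIs came from 6 cells. Ifitm2 had 81 and 13 UMIs in 11 KO and 8 WT cells and a ratio of 2.68 (1.87 to 3.70), with 87.7% of the KO UMIs in 5 cells. Ifitm3 had 55 and 19 UMIs, 47 of the KO UMIs in 1 cell, and its ratio of 1.59 was -1.07 without the single cell that carried the Lyz2 UMIs. The intervals take UMIs as independent and are too narrow for such genes.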

How the data were processed

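Tumor NK cells were profiled with 10x Chromium 3′ single-cell libraries, 1 per genotype. The authors deposited raw UMI counts of 27998 genes in each barcode, whole numbers by their values. The submitters' processing notes name Cell Ranger 2.0.2 and Seurat as tools and mm10 as build. For annotation, cell calling, use of strand and doublet removal, nothing is given in the sources used here.

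Kept barcodes had 500 or more genes and mitochondrial UMIs of 10% or less, and members were found by the UMI rule of the report. Doublets were not removed, and an alternative leaves out the 3% of kept cells with the most UMIs. UMIs were summed per class and library, scaled to CPM and compared as log2 ratios with 1 CPM added, with no test because there was 1 library per genotype. Intervals (95%) were exact Poisson for sums, exact conditional binomial for ratios, computed without the added CPM, and Clopper-Pearson for shares. All cover counting error only. Shares of cells were also computed after thinning to 2600 UMIs, which is the 10th percentile of kept cells cut to a multiple of 100, and 486 KO and 173 WT cells, 3 and 2 of them members, were too shallow for it.

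The members and the 30 gene lists were chosen with earlier results of these data known. Of 456 listed genes, 10 were not analysed here, and some items are not reported here. Named genes were the markers and rule genes, the 15 highest and 10 lowest genes against other cells in at least 20 cells, the 12 highest and 12 lowest KO over WT, up to 4 genes per list with at least 20 UMIs, Hif1a, and defining markers of other cell types. Mitochondrial, ribosomal protein, hemoglobin, antigen receptor and sex-linked marker genes and unnamed models were left out of the ranked parts. This gave 130 genes, 129 with 1 GENCODE record. Any other gene in the text, Prf1, Tbx21 and Gata3 among them, was picked with its values in view. Promoter sequence is from RefSeq on GRCm38.p6. Alternatives changed the rule, the filters, the scaling and the cells left out. The code was tested on simulated data. Python 3.11.15, numpy 2.4.6, scipy 1.17.1, pandas 2.3.3 and matplotlib 3.10.9 were used.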

Additional observations from a re-analysis of the deposited data

Results flagged for a closer look

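In 3 genes the KO over WT difference was 2-fold in opposite directions in Tmem176+ cells and in other kept cells. These differences between the classes were not tested, since each genotype had 1 library. The log2 ratio of the interferon-induced gene Isg15 was -1.43 in Tmem176+ cells and 1.15 in other kept cells. For Cd83, an activation marker, it was -1.16 and 1.27. For Ifitm2, an interferon-induced membrane protein gene, it was 2.68 and -2.68, with 81 and 13 UMIs in KO and WT Tmem176+ cells. Over the alternatives, the Isg15 ratio was -0.82 without cells with an Eomes UMI, and the Cd83 ratio was -0.43 without cells with 2 or more class II UMIs.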

How the results depend on the processing

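Depth limits the rule, since a cell must show several UMIs to be a member. The KO share of 2.58% was 1.66% with a total of at least 5 and 1.59% with the rule after thinning. It was 1.70% without members with 2 or more class II UMIs, called class II members here, and 1.89% without members with an Eomes UMI. The WT share of 2.45% was 3.09% with a total of at least 2, 1.60% with at least 5, 1.94% with no CD3 UMI, 1.33% after thinning and 1.24% without class II members. Against other kept cells, 59 genes were higher and 60 lower of 3020 compared. The number of genes compared changed with the setting, so each count is given with it. Without class II members 25 and 25 of 1583 were higher and lower. At a minimum of 100 UMIs they were 33 and 35 of 1542, and at 20 UMIs 109 and 97 of 5660. Without cells carrying 3 or more UMIs of the S and G2M list they were 11 and 13 of 378. With thinned sums they were 32 and 32 of 1215. The lower count was 36 of 1320 with the rule after thinning. KO against WT, 48 genes were higher and 39 lower of 2770. At 100 UMIs they were 14 and 20 of 1390, and at 20 UMIs 197 and 125 of 5305. They were 5 and 9 of 342 without the S and G2M cells, and 21 and 22 of 1100 with thinned sums. The higher count was 29 of 2770 with 10 CPM added, and the lower count 19 of 1464 without class II members. Leaving out the S and G2M cells keeps 12 KO and 17 WT members, so fewer genes were compared, and since the list holds abundant genes (Hmgb2 was seen in 63 KO and 69 WT members) the cells left out are not shown to be cycling. Of 1640 alternative values for the 84 single-gene ratios past 2-fold, 28 changed sign, and ratios under 2-fold, such as that of Gzma, are outside this count. Against other kept cells these were Cd74 at -1.36, H2-Eb1 at -1.002, H2-Aa at -1.38, Ifitm3 at -0.69 and Cd3g at 0.0314 without class II members. Others were Gzmg at 1.05 without the 3% deepest cells, Cxcl2 at -0.26 with the rule after thinning and Ifitm3 at -0.46 without Eomes members. Without the S and G2M cells they were Csf2 at -2.60, Cd3g at 0.56, Ctla4 at -3.22 and Ifitm3 at -4.13. Each value is the weaker of both libraries where both changed sign, and otherwise that of the library that changed sign. Cxcl2 after thinning stayed at 3.85 in the WT library, and Cd3g without class II members at -1.30 in the KO library. KO against WT the values that changed sign were Upp1 at -0.0213, Spp1 at 0.10 and Ccl1 at 0.63 without class II members. Further ones were Cxcl2 at -1.79 with the rule after thinning, and Ifitm3 at -0.60 without the 3% deepest cells and -1.07 without the macrophage-gene member. Without the S and G2M cells they were Ccdc184 at 0.0267, Lgals3 at -0.0431, Sla2 at -0.0426, Spp1 at 0.28, Cited4 at 0.18, Csf2 at 7.91, Cxcl2 at -2.60, Cd83 at 0.13, Hspa1a at 1.59 and Ifitm3 at -3.88. The cause of these changes was not tested. The NF-kB median in members ranged from -0.46 with 5 genes lower (without the S and G2M cells) to 0.22 (rule after thinning). The circulating NK median reached -1.32 with 9 genes lower without the S and G2M cells. These list values kept the genes of the main comparison, whether or not they had 50 UMIs in the cells left. The alternatives without Eomes members, without the macrophage-gene member and with thinned sums were chosen after seeing the data. No paired analysis was possible because there was 1 library per genotype.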
